A study of Homo sapiens with 8 samples.

Results

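The 26S proteasome genes were examined in RD, a human rhabdomyosarcoma cell line, after silencing of the transcription factor PROX1. Members were the protein-coding genes whose symbol starts with PSM, a letter from A to G and a digit, which gave 50 of 19817 protein-coding genes among 58302 annotated rows. Of these, 48 encode proteasome subunits, assembly factors or regulators. The other two, PSMC3IP and PSME3IP1, meet the symbol rule but encode a meiotic recombination cofactor and a partner of the activator PSME3.

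Total RNA was sequenced from 4 control cultures of RD cells carrying a scrambled short hairpin RNA and from 4 RD cultures carrying a hairpin against PROX1 (shPROX1), described by the submitters as biological replicates. Both groups were the same cell line grown in the same serum-containing medium, and the sources used here give no age of the cultures, hairpin sequence or vector. Each library held 3747090 to 4865161 counted reads. Levels are given in CPM, a gene's reads per 1000000 reads of the library after scaling with TMM factors.

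PROX1 itself stood at 20.1, 16.3, 16.6 and 21.3 CPM in control replicates 1 to 4 and at 7.80, 10.4, 9.14 and 8.26 CPM in shPROX1 replicates 1 to 4. The groups did not overlap, and the log2 change was -1.07 ± 0.15 (standard error), an 52.4% lower level (edgeR quasi-likelihood test, adjusted p = 4.89e-06, n = 4 per group). All 12 pairs of libraries within a group differed by more than sampling noise, with a chi-square per degree of freedom of 2.39 to 6.34 among controls and 1.19 to 2.16 among shPROX1 libraries. Of 8 skeletal muscle lineage genes, all were tested and 6 were called lower in shPROX1, against 17.9% of all tested genes. The log2 changes of these 8 genes had a median of -0.40 and ran from -1.32 to 0.04. Their summed level ran from 1966 to 2017 CPM in control and from 1594 to 1709 CPM in shPROX1 libraries. The part of this fall in the proteasome values was not tested. One of the 8, the myogenic factor MYOD1, stood at 71.0 ± 7.37 and 73.1 ± 4.35 CPM. Among the markers of other cell types, leukocyte CD3E and endothelial CDH5 had no counts. The 4 leukocyte markers summed to 0.406 to 1.18 CPM in control and 0.709 to 2.15 CPM in shPROX1 libraries, the 2 endothelial markers to 0 to 1.42 and 0.248 to 0.708 CPM, and the 2 epithelial markers to 0 to 0.203 and 0 to 0.537 CPM. In bulk RNA, a change in the share of cells that express a gene and a change of RNA per cell cannot be told apart.

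The proteasome is the protease complex that degrades proteins tagged with ubiquitin in the nucleus and cytoplasm. Its core particle (20S) is a barrel of α rings, which gate the entry, around β rings, which carry the proteolytic sites, and the regulatory cap (19S) binds ubiquitin, removes it, and unfolds and feeds in the substrate. Interferon-inducible β subunits replace the constitutive ones in the immunoproteasome, PA28 rings can take the place of the cap, and muscle relies on the same complex to turn over its contractile proteins. When proteasome activity drops, the transcription factor NFE2L1 (NRF1) is known to raise the genes of core and cap together through antioxidant response elements.

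Counts were sufficient to test 47 of the 50 members. Of those 47, 22 were called higher and 6 lower in shPROX1 at an adjusted p of 0.05, and 19 were not called. Among all 12392 tested genes, 17.3% were called higher and 17.9% lower. The median log2 change of the tested members was 0.16, against -0.007 over all tested genes. Since the share of genes called rises with their level, members with a mean of at least 100 CPM were also set against all genes at that level. Of 27 such members 19 were called higher and 0 lower, against 31.2% and 19.5% of 2457 genes. The 20 tested members below 100 CPM gave 3 higher (15%) and 6 lower calls, against 17.3% and 17.9% of all tested genes at any level. Values of the 4 control and the 4 shPROX1 libraries did not overlap for 24 members, 20 of them higher in shPROX1 and 4 lower, where 32.4% of all tested genes showed no overlap in one direction or the other. In 13 members, 10% or more of the exonic sequence also belongs to a second annotated gene. The 44 annotated proteasome pseudogenes held 25 counts over all libraries, against 324562 for the members. Whether reads that fit both a gene and its pseudogene were counted is not stated, so these counts cannot show if members lost reads. Reads of proteasome genes made up 0.914% of all counts pooled over the 4 control libraries and 1.01% over the 4 shPROX1 libraries.

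**Figure D1:**
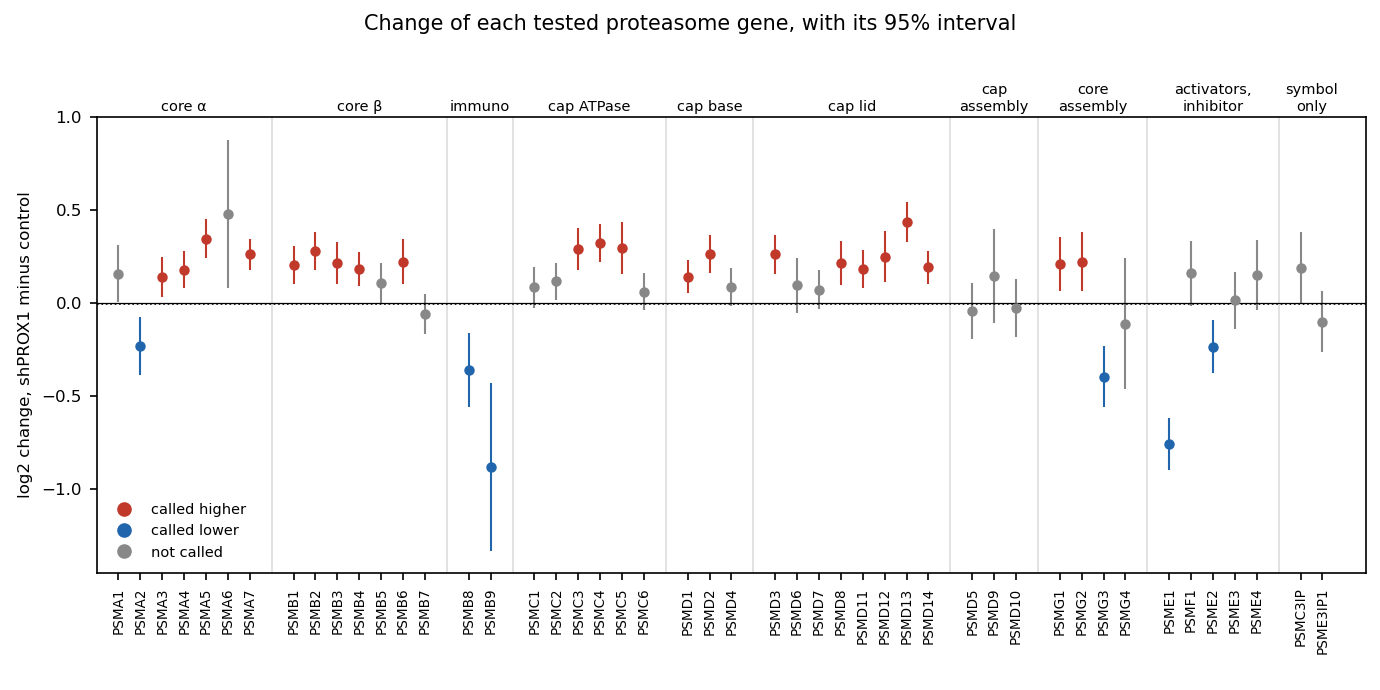
Log2 change of each of the 47 tested members (y axis, shPROX1 minus control, points) with its 95% interval (bars), grouped by role along the x axis and coloured by call. Core and cap members sit mostly above 0, while PSMA2, PSMB8, PSMB9, PSMG3, PSME1 and PSME2 are called lower.

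Most core particle genes rose in shPROX1. The 14 constitutive core genes summed to 3889 ± 118 CPM (SD, n = 4) in control and 4461 ± 125 CPM in shPROX1, which is 14.7% more, with no overlap between the groups. Of the 14, 9 were called higher and 1 lower, and their median log2 change was 0.19. The share called higher was 64.3%, against 17.3% of all tested genes and 31.2% of those at 100 CPM or more.

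Among the 7 α subunits, 4 were called higher (PSMA3, PSMA4, PSMA5 and PSMA7), 1 lower (PSMA2), and 2 not called. PSMA5 (ENSG00000143106, chr1:109399031-109426427 on GRCh38, minus strand) stood at 326, 289.6, 319.7 and 295 CPM in the 4 controls and at 384, 409, 373 and 398 CPM in the 4 shPROX1 libraries. All shPROX1 values lay above all control values. The log2 change was 0.35 ± 0.05 (adjusted p = 1.1e-05, edgeR), the largest among the called α subunits. PSMA7 was the most abundant core subunit per transcript length at 836 CPM per kilobase in control, and its level rose from 833 ± 34.1 to 1000.0 ± 36.6 CPM, a log2 change of 0.26 ± 0.04 (adjusted p = 1.83e-05, edgeR).

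PSMA1, the uncalled α subunit of highest level, stood at 71.9, 87.2, 71.8 and 91.4 CPM in controls and at 85.4, 90.2, 92.7 and 92.3 CPM in shPROX1 libraries. These ranges overlapped, because controls 2 and 4 lay near the shPROX1 values (log2 change 0.16 ± 0.07, edgeR adjusted p = 0.103), and without control replicate 4 the difference was 0.23 and was called. PSMA2 fell from 80.2 ± 7.70 to 68.2 ± 5.60 CPM (log2 change -0.23 ± 0.08, edgeR adjusted p = 0.0193). That call was lost without control replicate 2 (log2 change -0.18) and without shPROX1 replicate 3 (-0.18), and in DESeq2 (-0.23). PSMA3 and PSMA4 rose by 0.14 and 0.18 on the log2 scale, and the PSMA3 call was lost in 9 of 17 other settings.

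PSMA6 was measured at only 7.87 ± 1.93 CPM in control and 10.9 ± 2.30 CPM in shPROX1, although the α ring holds each of its 7 subunits in equal number. Its log2 difference of 0.48 ± 0.19 did not pass the threshold (edgeR adjusted p = 0.0531) but did so in 7 of 17 other settings. Its 4 annotated pseudogenes had no counts in any library, and 14.1% of its exon bases overlap a gene on the same strand that had 2 counts over all libraries. How reads shared by overlapping annotations, or by a gene and its pseudogenes, were counted could not be checked from the count tables. The low value of PSMA6 may therefore not show the transcript's true level. Per kilobase of transcript, control levels of the 14 core genes ran from 7.65 CPM (PSMA6) to 836 CPM (PSMA7), a 109-fold span, and leaving PSMA6 out the span was 15.6-fold, from 53.5 CPM per kilobase upwards. Core β subunits spanned 98.9 to 507 CPM per kilobase.

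**Figure D2:**
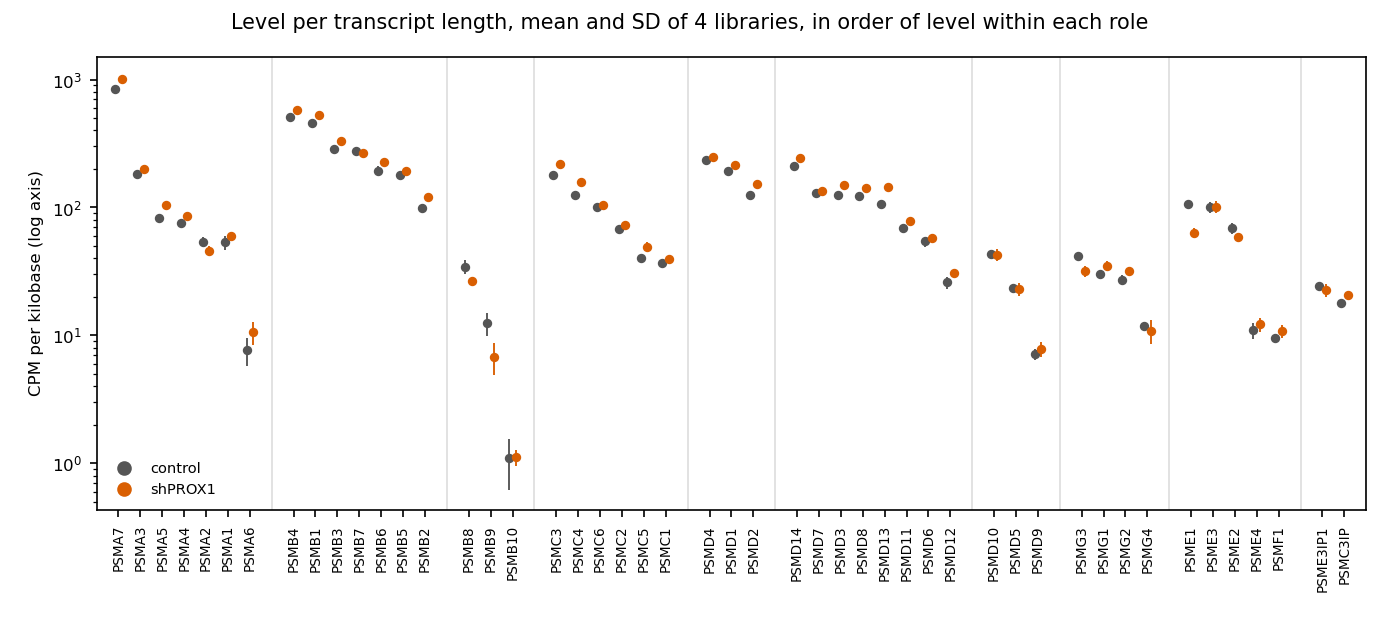
Level of each member with counts in CPM per kilobase of transcript (y axis, log scale; mean and SD of 4 libraries per group), ordered by control level within each role along the x axis, with α subunits first and the 2 symbol matches last. PSMA7 is the highest and PSMB10 the lowest, and PSMA6 lies below the other α subunits in both groups.

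Among the 7 constitutive β subunits, 5 were called higher (PSMB1, PSMB2, PSMB3, PSMB4 and PSMB6) and 0 lower, with a median log2 change of 0.21. PSMB2 (ENSG00000126067, chr1:35599544-35641844, minus strand), a structural β subunit, stood at 259.5, 278, 269 and 262 CPM in controls and at 312, 321, 349 and 316 CPM in shPROX1 libraries. The groups were clearly apart, with a log2 change of 0.28 ± 0.05 (edgeR adjusted p = 0.00011). PSMB1, PSMB3 and PSMB4 rose by 0.21, 0.21 and 0.18 on the log2 scale, each without overlap.

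The 3 β subunits that carry the proteolytic sites differed in their calls. PSMB6, which holds the caspase-like site, stood at 185, 155, 162 and 160.4 CPM in controls and at 179, 197, 194 and 203 CPM in shPROX1 libraries. Control 1 reached above the lowest shPROX1 library, and the log2 change was 0.22 ± 0.06 (edgeR adjusted p = 0.00475). PSMB5, which holds the chymotrypsin-like site, stood at 250.1, 224, 231 and 221 CPM and at 233, 260.3, 246 and 257 CPM, again with control 1 inside the shPROX1 range. Its difference of 7.68% had a 95% interval of -0.249 to 16.2% (edgeR adjusted p = 0.127), and it was called only without control replicate 1, at 0.15 on the log2 scale. PSMB7, which holds the trypsin-like site, stood at 288, 263, 278 and 258 CPM and at 254, 261, 253 and 278 CPM. The ranges overlapped and the difference was -3.92%, with an interval of -10.7 to 3.42% (edgeR adjusted p = 0.414). Whether these 3 changes differ from each other was not tested.

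Most cap genes also rose. The 17 summed to 4310.5 ± 109 CPM in control and 4944 ± 90.9 CPM in shPROX1, 14.7% more, without overlap. All 17 fitted changes were above 0, 11 were called higher and 0 lower, and the median log2 change was 0.19. The share called higher was 64.7%, against 17.3% of all tested genes and 31.2% of those at 100 CPM or more.

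Of the 6 ATPases of the cap base, which form the ring that unfolds substrates, 3 were called higher (PSMC3, PSMC4 and PSMC5). That is 50%, against 31.2% of tested genes at 100 CPM or more. PSMC4 (ENSG00000013275, chr19:39971005-39981441, plus strand) stood at 205, 196, 190.4 and 208 CPM in controls and at 243, 252, 245 and 260.4 CPM in shPROX1 libraries. No control reached the shPROX1 range, and the log2 change was 0.32 ± 0.05 (edgeR adjusted p = 2.12e-05). PSMC3 and PSMC5 rose by 0.29 and 0.30. Of the exon bases of PSMC5, 19.5% overlap FTSJ3 on the other strand, a gene called higher by 0.17; the sources used here do not say how reads were assigned by strand, and the part of FTSJ3 in the PSMC5 value was not tested.

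PSMC6, the most abundant uncalled ATPase by CPM, stood at 228, 206, 222 and 219 CPM in controls and at 230.1, 234, 222 and 228 CPM in shPROX1 libraries. The ranges overlapped and the interval of the difference was -2.68 to 11.9% (edgeR adjusted p = 0.351). PSMC2 did not pass the threshold (0.12 ± 0.05 on the log2 scale, edgeR adjusted p = 0.0615) although its groups did not overlap, and it was called in 4 of 17 other settings. PSMC1 stood at 165 ± 7.39 and 175 ± 7.49 CPM (not called), and 75.8% of its exon bases overlap NRDE2 on the other strand.

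The 3 non-ATPase subunits of the base dock ubiquitin carriers and substrates. PSMD2 (ENSG00000175166, chr3:184298709-184309054, plus strand), a scaffold that binds shuttle proteins, stood at 447, 411, 433 and 445 CPM in controls and at 493, 502, 565 and 526 CPM in shPROX1 libraries. All shPROX1 libraries were higher, with a log2 change of 0.26 ± 0.05 (edgeR adjusted p = 0.00017). PSMD1, the other scaffold, rose by 0.14, a call that was lost without shPROX1 replicate 2 (0.11). The ubiquitin receptor PSMD4 stood at 329, 297, 331 and 309 CPM in controls and at 338, 342, 322 and 342 CPM in shPROX1 libraries, overlapping, with an interval of -1.14 to 13.8% (edgeR adjusted p = 0.19).

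Of the 8 lid subunits measured, 6 were called higher (PSMD3, PSMD8, PSMD11, PSMD12, PSMD13 and PSMD14). That is 75%, against 31.2% of tested genes at 100 CPM or more. PSMD13 (ENSG00000185627, chr11:236546-252984, plus strand) stood at 227, 201, 219 and 207 CPM in controls and at 294, 299.8, 280.0 and 279.5 CPM in shPROX1 libraries. The lowest shPROX1 value was far above the highest control, and its log2 change of 0.44 ± 0.05 (edgeR adjusted p = 5.11e-07) was the largest rise among the members called. PSMD14, the deubiquitinase of the lid, rose from 415 ± 8.79 to 474 ± 14.7 CPM (log2 change 0.19 ± 0.04, edgeR adjusted p = 0.00127). PSMD7, which pairs with PSMD14, stood at 219.6, 218, 216 and 206 CPM in controls and at 221, 237, 209.6 and 235 CPM in shPROX1 libraries, overlapping, with an interval of -2.31 to 13.2% (edgeR adjusted p = 0.292). PSMD3, PSMD8, PSMD11 and PSMD12 rose by 0.26, 0.22, 0.18 and 0.25, while PSMD6 was not called (0.10, from 0.040 without control replicate 4 to 0.15 without control replicate 1).

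**Figure D3:**
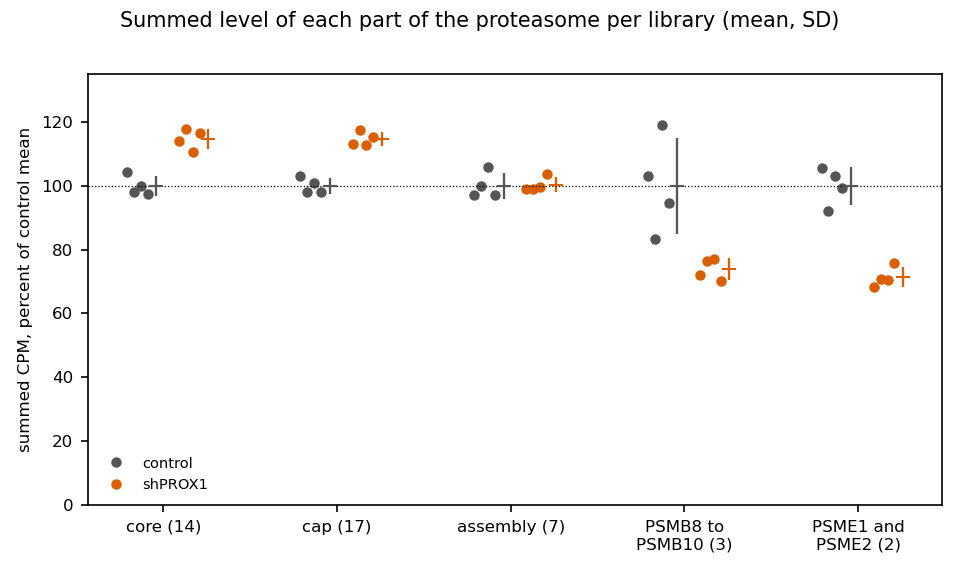
Summed CPM of the core, the cap, the assembly factors, PSMB8 to PSMB10, and PSME1 with PSME2 in each library (points, y axis, percent of the control mean; crosses are mean and SD of 4 libraries). The core and cap sums of shPROX1 lie above all controls, the assembly sums overlap, and the sums of the 2 interferon-inducible groups lie below all controls.

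Of the 7 assembly factors among the members, 2 were called higher and 1 lower, with a median log2 change of -0.03. The share called was 42.9%, near the 35.2% of all tested genes. Their summed level was 348 ± 14.4 CPM in control and 349 ± 7.93 CPM in shPROX1, and the groups overlapped. Core assembly is started by PSMG1 with PSMG2, which template the α ring, and by PSMG3 with PSMG4. PSMG1 and PSMG2 rose by 0.21 and 0.22 on the log2 scale (edgeR adjusted p = 0.023 and 0.0239); DESeq2 called neither, and leaving out 1 library lost the call for PSMG1 in 3 cases (control replicate 1, shPROX1 replicate 1 or 2) and for PSMG2 in 2 (control replicate 1 or shPROX1 replicate 3).

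PSMG3 (ENSG00000157778, chr7:1567330-1571005, minus strand) stood at 60.3, 57.3, 61.5 and 54.8 CPM in controls and at 48.9, 39.5, 41.4 and 47.2 CPM in shPROX1 libraries. It was lower in all shPROX1 libraries, with a log2 change of -0.40 ± 0.08 (edgeR adjusted p = 0.000378). Its partner PSMG4 stood at 9.45, 9.88, 9.40 and 10.8 CPM in controls and at 10.6, 8.94, 6.45 and 10.4 CPM in shPROX1 libraries. The ranges overlapped, and at this depth the interval was wide, -27.3 to 18.2% (edgeR adjusted p = 0.658). PAAF1, a protein without the PSM symbol that binds the cap ATPases, was called lower and is given below. None of the 3 members that are chaperones of the cap base was called. PSMD5, the most abundant by CPM, stood at 76.3, 80.5, 86.8 and 82.2 CPM in controls and at 72.8, 71.3, 89.7 and 82.9 CPM in shPROX1 libraries, overlapping, with an interval of -12.5 to 7.65% (edgeR adjusted p = 0.686). PSMD9 and PSMD10 had differences of 0.15 and -0.03 on the log2 scale.

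Both testable interferon-inducible subunits, PSMB8 and PSMB9, fell. Together with PSMB10 they summed to 49.8 ± 7.51 CPM in control and 36.8 ± 1.66 CPM in shPROX1, without overlap. PSMB8, PSMB9 and PSMB10 replace PSMB5, PSMB6 and PSMB7 in the immunoproteasome, which cuts peptides suited to antigen presentation. PSMB8 (ENSG00000204264, chr6:32840717-32844703, minus strand) stood at 39.9, 32.6, 44.8 and 37.6 CPM in controls and at 30.3, 30.3, 30.1 and 30.0 CPM in shPROX1 libraries. Every shPROX1 value lay below every control value and the 4 were close together. The log2 change was -0.36 ± 0.10 (edgeR adjusted p = 0.00498). Of its exon bases, 20.6% overlap the antisense gene PSMB8-AS1, which had 11 counts over all 8 libraries.

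PSMB9 (ENSG00000240065, chr6:32844136-32859585, plus strand), its neighbour on chromosome 6, stood at 10.4, 7.90, 12.3 and 8.32 CPM in controls and at 4.26, 6.46, 6.72 and 3.78 CPM in shPROX1 libraries. The groups did not overlap, and the log2 change was -0.88 ± 0.22 (edgeR adjusted p = 0.00241) on 16 to 51 counts per library. PSMB10 had 4, 4, 9 and 6 counts in controls and 6, 5, 6 and 5 in shPROX1 libraries, that is 0.945, 0.988, 2.17 and 1.22 CPM and 1.42, 1.24, 1.61 and 1.18 CPM. Those values overlapped and were too low to test. A neighbouring gene that shares 34.8% of its exon bases on the same strand had 95 counts over all libraries, against 45 for PSMB10.

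Per kilobase of transcript, the interferon-inducible member was a minor part of each pair. PSMB8 made up 16.1 ± 1.64% (SD, n = 4) of PSMB5 and PSMB8 together in control and 12.3 ± 0.560% in shPROX1, with no overlap. PSMB9 made up 6.0 ± 1.1% of PSMB6 and PSMB9 in control and 2.90 ± 0.774% in shPROX1, again with no overlap. PSMB10 made up 0.392 ± 0.163% and 0.420 ± 0.0747% of PSMB7 and PSMB10, which overlapped. PSMA8, a testis subunit, and PSMB11, the thymus subunit, had 0 counts in every library, which allows up to 0.609 to 0.806 CPM (3 counts, counting error only).

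**Figure D4:**
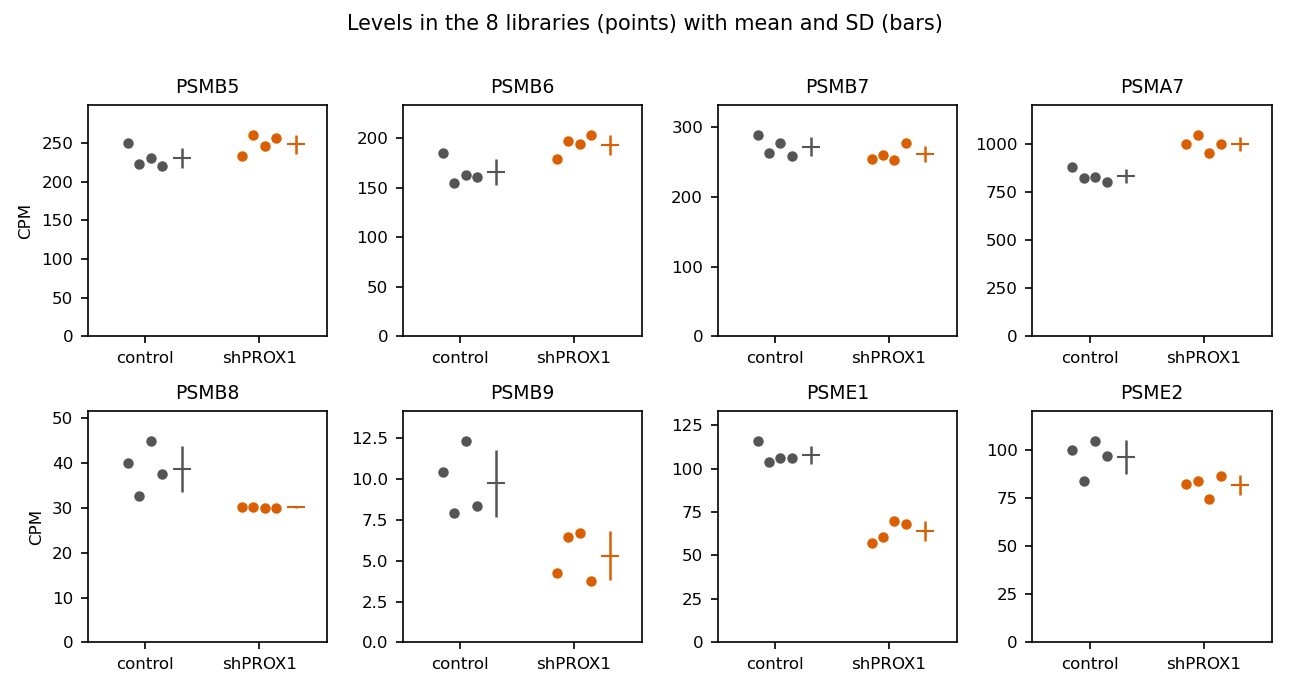
CPM in each of the 4 control and 4 shPROX1 libraries (points; crosses are mean and SD; y axes start at 0) for the 3 catalytic β subunits, PSMA7, PSMB8, PSMB9, PSME1 and PSME2. PSMA7 is higher and PSMB8, PSMB9 and PSME1 are lower in all shPROX1 libraries, and the other 4 panels overlap.

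Among the activators and the inhibitor, 2 of 5 were called (40%, near the 35.2% of all tested genes). Both were lower, and both are subunits of the PA28αβ ring that interferon also induces. PSME1 (ENSG00000092010, chr14:24136158-24138967, plus strand), the α subunit, stood at 116, 104, 106 and 106 CPM in controls and at 57.5, 60.6, 69.6 and 68.0 CPM in shPROX1 libraries. The highest shPROX1 value was well below the lowest control, and the log2 change was -0.76 ± 0.07 (edgeR adjusted p = 5.71e-09), with the smallest adjusted p of all members. PSME2 (chr14:24143362-24147570, minus strand), the β subunit encoded next to it, fell from 96.5 ± 8.82 to 81.9 ± 5.35 CPM (log2 change -0.23 ± 0.07, edgeR adjusted p = 0.0104), with overlap between the groups. That call was lost without control replicate 3 (-0.20). Summed, the pair stood at 205 ± 12.2 CPM in control and 146 ± 6.4 CPM in shPROX1.

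PSME3, which forms the nuclear PA28γ ring, stood at 94.5, 99.2, 114 and 92.6 CPM in controls and at 114, 97.6, 104 and 88.8 CPM in shPROX1 libraries. The ranges overlapped, with an interval of -9.10 to 12.5% (edgeR adjusted p = 0.893). PSME4, the large nuclear activator PA200, and PSMF1, the inhibitor PI31, were not called (0.15 and 0.16). Leaving out 1 library moved PSME4 to between 0.069 (without control replicate 1) and 0.23 (without control replicate 3), and PSMF1 to as low as 0.084 (without shPROX1 replicate 3). Of the genes that only match the symbol rule, PSME3IP1 stood at 63.1, 71.6, 70.9 and 71.3 CPM in controls and at 71.4, 69.5, 54.0 and 63 CPM in shPROX1 libraries, overlapping (edgeR adjusted p = 0.355), and PSMC3IP was not called (0.19).

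Promoter sequence was examined next, because 20 of 31 core and cap genes were called higher and 1 lower, while PSMB8, PSMB9, PSME1 and PSME2 were called lower. RefSeq windows (GRCh38.p14, 250 bases before to 50 bases after an annotated start) were found for 44 of the 50 members. A gene could have several starts, and was counted when any of its windows held a match. Genes with more starts had more chances to match. PSMA7, PSMB1, PSMB6, PSMB7, PSMD4 and PSMG3 were not matched. Each motif was searched on both strands, matches of different motifs may overlap, and the motifs were chosen with the changes known.

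The core of the interferon-stimulated response element, GAAANNGAAA, was in the windows of 7 of 44 members (15.9%), against 4.2% of 15298 protein-coding genes. PSMB8, PSME1 and PSME2 were called lower, PSMA4 and PSMB4 higher, PSMG4 was not called and PSMB10 was not tested. In 5 of these 7 the match was the same 10 bases on one strand or the other, which occur in the windows of 27 of the 15298 genes (0.176%); that exact sequence was singled out after the matches were seen. Those 5 windows are shown because 4 of them belong to interferon-inducible members, 5′ to 3′ along the gene, with the match in capitals:
PSMB8, chr6:32844032-32844061, minus strand: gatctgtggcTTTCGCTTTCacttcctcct
PSMB10, chr16:67936852-67936881, minus strand: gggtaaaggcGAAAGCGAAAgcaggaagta
PSME1, chr14:24136189-24136218, plus strand: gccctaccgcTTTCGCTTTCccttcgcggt
PSME2, chr14:24146619-24146648, minus strand: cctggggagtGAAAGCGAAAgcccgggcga
PSMG4, chr6:3258904-3258933, plus strand: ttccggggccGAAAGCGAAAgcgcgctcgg

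Counting the start site as base 1 and the base before it as -1, the match spans -4 to 6 in PSMB8, -21 to -12 in PSMB10, 6 to 15 in PSME1, -28 to -19 in PSME2 and -33 to -24 in PSMG4. The matches in PSMB8, PSMB10, PSME1 and PSME2 lie inside the annotated gene, by a start other than its first base. Among the other 22 genes with these 10 bases in a window, 18 were tested, of which 2 were called higher, 6 lower and 10 were not called. Of all tested genes, 17.3% were called higher and 17.9% lower. They include TAP2, called higher by 0.42 on the log2 scale, and TAP1, not called at -0.13. No window of PSMB9 held a match. The interferon gamma activated sequence core TTCNNNGAA was in 8 member windows (18.2%, against 9.02% of all genes), namely PSMA2, PSMA8, PSMB5, PSMB8, PSMC4, PSMD2, PSMD3 and PSME3.

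The antioxidant response element core, TGACNNNGC, was in the windows of 15 of 44 members (34.1%), against 18.0% of all genes. Of the 15, 9 were called higher, 3 lower (PSMB9, PSME1 and PSME2) and 3 were not called. Of all 47 tested members, 22 were called higher and 6 lower. The windows of PSMC4 and PSMD1, also called higher, and of the 3 members called lower are not shown. Windows of 5 other core and cap genes called higher are shown as examples, with the match in capitals:
PSMA4, chr15:78540650-78540678, plus strand: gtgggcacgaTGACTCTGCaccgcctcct
PSMB3, chr17:38752627-38752655, plus strand: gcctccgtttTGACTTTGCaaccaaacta
PSMC5, chr17:63827654-63827682, plus strand: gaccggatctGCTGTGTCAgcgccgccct
PSMD3, chr17:39980760-39980788, plus strand: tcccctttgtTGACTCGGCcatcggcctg
PSMD12, chr17:67366724-67366752, minus strand: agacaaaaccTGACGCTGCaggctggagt

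The matches shown for PSMA4 and PSMC5 lie inside the annotated gene, before a start other than its first base. The remaining matches lay in PSMC4, PSMD1, PSMG1 and PSMG2 among those called higher and in PSMD5, PSMD9 and PSME4 among those not called. The CCAAT box (CCAAT), a common promoter element, was in 22 member windows (50%, against 42.5%). The 3 core and cap genes with the largest called rises, PSMD13, PSMA5 and PSMC4, held an antioxidant core in PSMC4 only. A match is a run of letters in these windows, and no binding was measured.

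Genes that act around the proteasome were read from lists of related genes. Of 14 genes of the NFE2L1 and NFE2L2 pathway, 6 were called higher and 1 lower, with a median log2 change of 0.05. The share called was 50%, against 35.2% of all tested genes. NFE2L1, which controls proteasome genes, rose from 203 ± 7.86 to 249.9 ± 15.1 CPM (log2 change 0.30 ± 0.05, edgeR adjusted p = 0.000101), while NFE2L2 was not called (0.07). The small MAF partners of both factors rose: MAFF from 7.82 ± 0.692 to 18.8 ± 0.886 CPM (log2 change 1.27 ± 0.14, edgeR adjusted p = 1.41e-07), MAFK by 0.44 and MAFG by 0.33. DDI2, the protease that cleaves NFE2L1, fell (-0.31), and VCP, the segregase that extracts it from the membrane, was not called (-0.07).

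Of 14 other proteins of the proteasome that lack the PSM symbol, 9 were called higher and 3 lower, with a median of 0.17. The share called was 85.7%, against 35.2% of all tested genes and 50.7% of those at 100 CPM or more. The median level of the list was 112 CPM. The cap's ubiquitin receptor ADRM1 rose from 296 ± 7.99 to 394 ± 16.4 CPM (log2 change 0.41 ± 0.05, edgeR adjusted p = 3.44e-07). The lid subunit SEM1, the core chaperone POMP, the deubiquitinases USP14 and UCHL5 and the stress-induced cap partner ZFAND2A rose by 0.28, 0.19, 0.33, 0.18 and 0.43. PAAF1, a protein that binds the cap ATPases, fell from 16.7 ± 1.07 to 10.6 ± 1.07 CPM (log2 change -0.65 ± 0.14, edgeR adjusted p = 0.000527), and AKIRIN2, which brings proteasomes into the nucleus, fell by 0.51. ZFAND5 was not called (0.10).

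Of 14 genes of ubiquitin supply and shuttling, 4 were called (28.6%, against 35.2% of all tested genes). Of these, 2 were called higher (UFD1 and NPLOC4, the VCP cofactors, 0.38 and 0.26) and 2 lower, among them the shuttle UBQLN4 (-0.23), with a median of 0.02. The ubiquitin gene UBB stood at 1105 ± 95.2 and 1121 ± 44.3 CPM (not called). Antigen processing genes changed in both directions, with 5 of 14 tested called higher and 3 lower (57.1% called) and a median of -0.04. TAPBP, the peptide-loading chaperone, fell (-0.73), while TAP2, a subunit of the peptide transporter, and IRF1 rose (0.42 and 0.37).

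Other complexes of many subunits were read in the same way. In the COP9 signalosome, whose subunits resemble the lid, 4 of 10 genes were called higher and 0 lower, with a median of 0.03. The share called was 40%, near the 35.2% of all tested genes. COPS6, COPS9 and COPS7B rose by 0.35, 0.33 and 0.26, and COPS3 was not called (-0.02). In the CCT chaperonin 3 of 8 were called higher and 0 lower (37.5% called), with a median of 0.06. All 8 lay at 491 CPM or more, and of tested genes at 100 CPM or more 50.7% were called. TCP1, CCT3 and CCT2 rose by 0.24, 0.22 and 0.13, and CCT5 was not called (0.08). Differences between these lists and the proteasome genes were not tested.

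**Figure D5:**
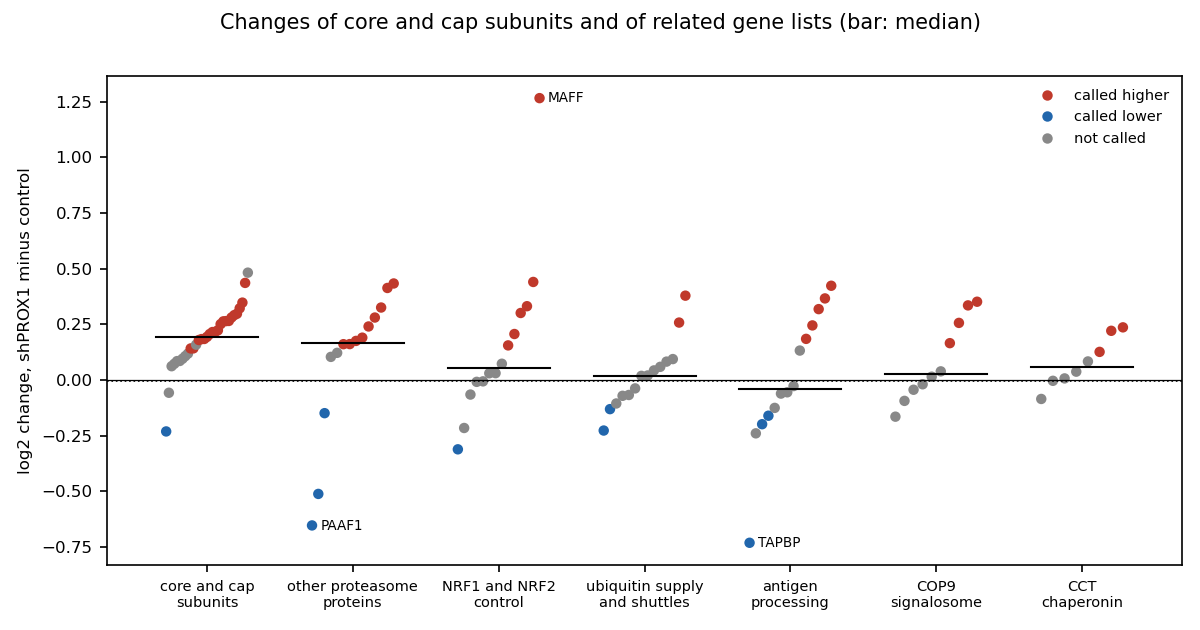
Log2 change (y axis, shPROX1 minus control) of each tested gene of the 31 core and cap subunits and of 6 lists of related genes along the x axis, coloured by call, with the list median as a bar. The core and cap median is 0.19 and the medians of the other lists run from -0.04 to 0.17.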

How the data were processed

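The authors deposited raw counts per gene for 4 control and 4 shPROX1 libraries, 1 table per library with 58302 rows, none of them without a gene. Libraries came from total RNA with a kit that keeps strand, per the labels' protocols. GRCh38 (hg38) and the tools HISAT2, HTSeq, DESeq2 and FastQC come from the submitters' processing notes, and the sources used here state neither versions nor counting options.

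Identifiers were matched to GENCODE 29 (58039 rows) for biotype, coordinates and transcript length. Counts were tested with edgeR 4.0.16 (R 4.3.3): filterByExpr, TMM factors, quasi-likelihood fit, and Benjamini-Hochberg adjustment over 12392 tested genes, with calls at 0.05. CPM used TMM library sizes, and CPM per kilobase the principal transcript. The fit was tested on simulated counts, with far fewer changed genes than were called here. It called 26% of genes changed by 0.25 on the log2 scale, 64% at 0.5 and 93.9% at 1. The median level was 34.5 CPM over all tested genes and 179 CPM over the tested members, and the share called at the members' levels was not tested. A member that was not called may still have a change of the size seen in called ones: PSMA1 was not called at 0.16 on the log2 scale, and PSMA3 was called at 0.14. No pairing of libraries by replicate number was visible (correlation of deviations -0.05 to 0.05), which cannot show whether they were prepared in pairs. Depth was 3747090 to 4865161 counts per library, so 3 counts equal 0.609 to 0.806 CPM.

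Members and lists were chosen with earlier results of these data known. All members were read; values in every library are given for the immunoproteasome subunits, the β subunits they replace, and, in each role, the called member with the largest change and the most abundant uncalled one. Each list gives up to 3 called genes of largest change and the most abundant uncalled one, with NFE2L1, NFE2L2, DDI2, SEM1, POMP, USP14, UCHL5, TAP1 and MYOD1 added after their values were seen. Other promoter motifs were looked at and are not shown, and some genes of the lists are not reported here. DESeq2 1.42.0, limma voom 3.58.1, other scalings and filters, a replicate block, a GC and length offset and leaving out each library were alternatives.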

Additional observations from a re-analysis of the deposited data

Results flagged for a closer look

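Among 96 sets of 4 libraries (48 genes in 2 groups), 1 held a library far from the others: PSME3IP1 stood at 63.1 CPM in control replicate 1 and at 70.9 to 71.6 CPM in the other 3 controls. The gap was 0.915 of the range, above Dixon's 95% critical value for 4 samples, and chance alone flags about 1 set in 20.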

How the results depend on the processing

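Over 17 alternatives at the same threshold, 22 of the 28 called members kept their call in all, 6 lost it at least once (PSMA2, PSMA3, PSMD1, PSME2, PSMG1 and PSMG2), and 4 of 19 uncalled members gained one (PSMA1, PSMA6, PSMB5 and PSMC2); no called member changed sign. DESeq2 gave 19 higher and 5 lower, and a threshold of 0.01 gave 18 and 4. With each library left out in turn, 20 to 23 members were called higher, 5 to 6 lower, the members' median was 0.15 to 0.18, PROX1 changed by -1.15 to -0.99 and 3788 to 4292 genes were called. The fit with replicate number as a block gave 22 higher, 6 lower and 4187 genes called. No member's call changed there except PSMA3 (lost, adjusted p = 0.0517 in edgeR) and PSMA6 (gained, 0.0398). The labels do not say whether the numbers pair libraries. The sign turned for 4 uncalled genes when 1 library was left out: PSME3 (from -0.048 to 0.081 over all 8 fits) at -0.0087, -0.019 and -0.048 without control replicate 1, control replicate 4 and shPROX1 replicate 1, PSMD10 (-0.071 to 0.044) without shPROX1 replicate 1, PSMD5 (-0.10 to 0.0043) without shPROX1 replicate 2, and PSMG4 (-0.19 to 0.018) without shPROX1 replicate 3; the cause was not tested. Leaving out 1 library also moved other uncalled members by over 1.5 times: PSMB7 (-0.088 to -0.028), PSMC6 (0.035 to 0.081), PSMD4 (0.056 to 0.11), PSMD6 (0.040 to 0.15), PSMD7 (0.049 to 0.11), PSMD9 (0.082 to 0.24), PSME4 (0.069 to 0.23), PSMF1 (0.084 to 0.20) and PSME3IP1 (-0.15 to -0.023). At 0.01, calls among other proteasome proteins went from 12 to 6, ubiquitin genes from 4 to 2, antigen processing from 8 to 5 and the COP9 signalosome from 4 to 2. Antigen processing gave 5 without shPROX1 replicate 1, and ubiquitin genes 2 without shPROX1 replicate 4.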
